A study of Mus musculus with 12 samples.

Results

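The 156 genes described here are the long intergenic noncoding RNAs (lincRNAs) that were most abundant in retinal ganglion cells, the neurons whose axons form the optic nerve. They were chosen by their level: they are the autosomal rows that the deposited table types as lincRNA and that had at least 5 RPKM (reads per kilobase of gene, scaled to library size) in at least 6 of 12 libraries. They make up 8.71% of the 1792 lincRNA rows among the 38887 genes of the table, and 6 further rows that met the level but lie on a sex chromosome were left out. Their levels were what chose them, so levels are given below as a description only. The rule did not use the difference between groups, but B230217O12Rik reached 5 RPKM in the 6 HB9 libraries and in no Opn4 library. Another 5 members (Gm17586, Gm2464, Gm26646, Gm26856 and Gm4419) reached it in 1 library of a class. Others, such as 2610316D01Rik (2 Opn4 and 6 HB9 libraries) and RP24-421H18.1 (3 and 6), could meet the rule through 1 class alone. The class differences of all these members are not independent of the choice. RNA came from cells picked one at a time under fluorescence, and 10 cells from each of 3 animals were joined into a sample of 30 cells. Opn4 cells were from Opn4CreERT/+;R26-tdTomatof/f mice, in which the melanopsin gene drives a tamoxifen-dependent Cre that switches on a red reporter in melanopsin ganglion cells. HB9 cells were from HB9:GFP mice, in which an HB9 (Mnx1) transgene marks ON-OFF direction-selective ganglion cells in green. Mice of both lines received tamoxifen (0.124 mg per g of body weight on 5 days, from postnatal day 21) and had a sham operation or an optic nerve crush at postnatal day 42, with collection 3 days later. Each of the 4 groups (Opn4 sham, Opn4 crush, HB9 sham and HB9 crush) had 3 libraries. Cre and the red reporter exist in the Opn4 line alone, so they cannot be told apart from the cell class.

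LincRNAs are transcripts, most of them spliced and polyadenylated, of genes annotated as lying between protein-coding genes and as holding no long reading frame. Some act in the nucleus as part of speckles and other bodies or as regulators of chromatin, some serve as host transcripts from which small nucleolar RNAs or microRNAs are cut, and for most no function is known. Many are transcribed in the opposite direction from the promoter of a coding gene, and catalogues of lincRNAs change between releases as rows are retyped as antisense RNAs, pseudogenes or short coding genes.

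The totals by which the authors had scaled each library, recovered from the RPKM steps, ran from 15104446 to 28195798 reads. The Opn4 and HB9 labels matched the markers in all libraries: the summed level of 8 melanopsin-cell markers was 2520 to 4206 RPKM in the Opn4 libraries and 44.2 to 352 RPKM in the HB9 libraries. That of 7 direction-selective markers was 117 to 194 RPKM in the Opn4 libraries, 4932 to 6261 RPKM in HB9 sham and 1475 to 6522 RPKM in HB9 crush. Mnx1, the HB9 gene itself, was at 20.9 to 41.7 RPKM in HB9 sham, 1.13 to 3.06 RPKM in HB9 crush and at most 0.144 RPKM in the Opn4 libraries. Other cell types were represented too. The mean log2 level of 15 rod photoreceptor genes, all of them detected, was 4.72 to 6.65 in the Opn4 libraries and 3.21 to 4.99 in the HB9 libraries, with the 2 highest in Opn4 sham 1 and Opn4 crush 1. The summed level of 11 Müller glia and astrocyte markers, 9 of them above 1 RPKM in a library, was 533 to 626 RPKM in Opn4 sham, 806 to 1034 RPKM in Opn4 crush, 416 to 421 RPKM in HB9 sham and 796 to 2197 RPKM in HB9 crush. Of 11 microglia markers, C1qb and C1qc were at 0 in all libraries, and the summed level was 3.41 to 14.8 RPKM outside HB9 crush and 98.6 to 131 RPKM in HB9 crush, most of it Cd68. In HB9 cells the melanopsin-cell markers summed to 44.2 to 71.4 RPKM after sham and 281 to 352 RPKM after crush.

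Many members carry another type in a later annotation. In the GENCODE M21 annotation of the same genome build (GRCm38, mm10), which lists 148 of the 156 identifiers, 87 members were typed as lincRNA (55.8%) and 35 as antisense RNA. Of the rest, 10 were typed as processed transcript, 8 as bidirectional promoter RNA, 5 as protein-coding, 2 as transcribed pseudogene and 1 as awaiting experimental support. Of the 1549 other autosomal lincRNA rows, 77.9% were still typed as lincRNA and 11.2% as antisense, against 22.4% antisense among the members; this difference was not tested. The 5 now typed as coding are Gm13889, 6330403K07Rik, AI854703, BC033916 and 1500011K16Rik, the last named Mtln there, the gene of the mitochondrial micropeptide mitoregulin. Exon bases were shared with an exon of a coding gene by 93 members, nearly always on the opposite strand (3 on the same strand). A further 20 members matched another gene or overlapped a pseudogene, and 36 showed neither feature. The remaining 7, absent from M21, could not be examined for these. A match was at least 95% identity over at least 200 bases of transcript, and members with one are called near copies. The matched part could be small: it was 4.32% of the transcript in Gm27048, 22.4% in Gpr137b-ps and 100% in Gm26526. A start within 2000 bp of the start of a coding gene on the other strand was found for 37 members. The median summed exon length was 1903 bases (428 to 18089). Whether the authors counted reads by strand is not given in the sources used here, so for the 93 members reads of the lincRNA and of the coding gene cannot be told apart.

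**Figure D1:**
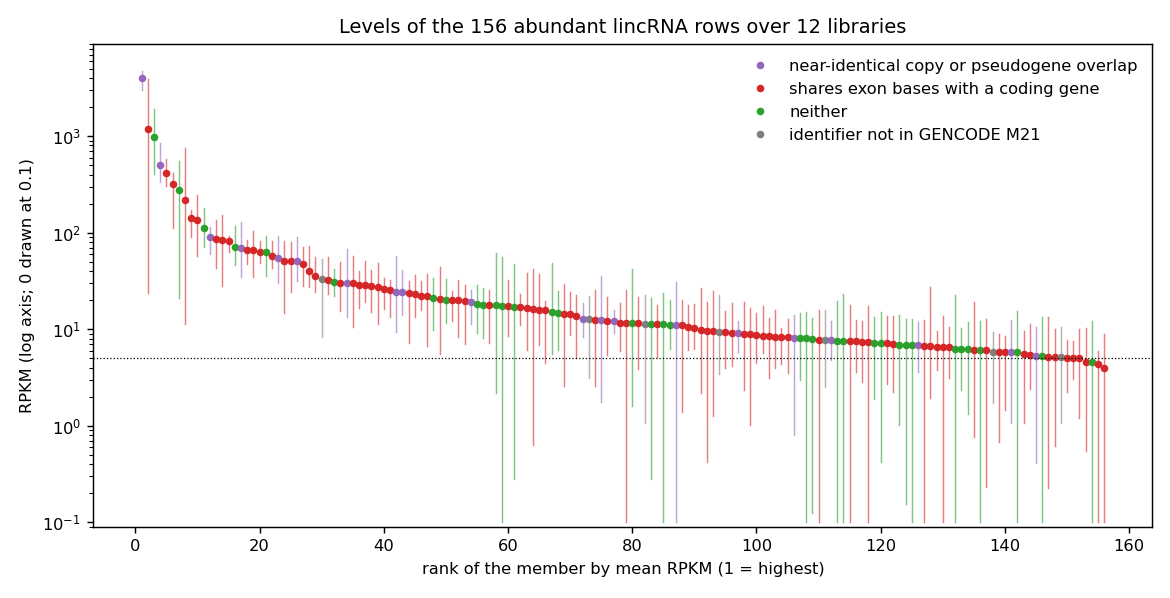
RPKM (log axis) of each of the 156 members, ranked by mean; points are means over 12 libraries, vertical lines run from the lowest to the highest library (0 drawn at 0.1), and colours give the 4 structural groups. The dotted line is the 5 RPKM of the rule; 11 members have a mean of at least 100 RPKM and the highest, Gm26825, stands at 4018 RPKM.

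Members together held 0.923% to 1.36% of the summed RPKM of a library and 86.8% to 92.0% of the summed RPKM of all lincRNA rows. The median member had a mean of 11.7 RPKM (quartiles 7.45 and 26.7), 90 members had a mean of at least 10 RPKM and 74 reached 5 RPKM in all 12 libraries. The 3 highest, Gm26825, Gm26870 and Malat1, held 48.7% to 67.6% of the members' sum. Behind a typical member stood 523 recovered reads per library (median over members of the median over libraries; quartiles 294 and 1144). At the threshold, the members just inside were Gm26646, with a sixth-highest library of 5.03 RPKM (3.03 to 7.63 over 12 libraries), and Gm26894, with 5.06 RPKM (1.94 to 27.3). Just outside were Gm27032 at 4.99 RPKM (1.08 to 10.8) and 6430562O15Rik at 4.98 RPKM (2.17 to 8.04).

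Of the 10 most abundant members, 8 shared exon bases with a coding gene, were near copies or overlapped a pseudogene row, and Malat1 and 6330403K07Rik did none of these. Gm26825 (chr5:5781530-5783636, plus strand) was the highest in the mean and the steadiest, with 3523 ± 481 RPKM in Opn4 sham, 3967 ± 41.1 in Opn4 crush, 4116 ± 471 in HB9 sham and 4466 ± 345 in HB9 crush (SD, n = 3). Its coefficient of variation over the 12 libraries was 0.12. Hits to other genes at 95% identity or more covered 98.6% of its transcript, and its longest match, 1940 aligned bases at 99.6% identity, was to Hspa8, the constitutive heat shock chaperone, which itself had 1254 RPKM. Gm26623 (mean 54.7 RPKM) matched H2afz, the histone variant H2A.Z, over 708 bases at 97.5% identity. How closely these rows follow their coding counterpart can be read from 30 aligned bases of each, from M21 transcripts, with the differing letters in capitals.
Gm26825: aacattgaggatgccattggcatcAatgtc
Hspa8: aacattgaggatgccattggcatcGatgtc
Gm26623: gctgagtgagatctaaggtaagtcTTgatt
H2afz: gctgagtgagatctaaggtaagtcCCgatt

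In the first stretch 1 of 30 letters differs and in the second 2 of 30, and over the whole alignments 5 and 18 bases mismatched. Gm26870 (mean 1198 RPKM) overlaps 9 predicted coding genes at chr9:3000282-3038313, minus strand, and varied from 23.8 to 3934 RPKM between libraries, with all 4 groups overlapping. Gm26924 (mean 503 RPKM; Gm42418 in M21) overlaps a pseudogene row, AY036118, on chromosome 17 and ran from 334 to 857 RPKM. Gm26723 had a mean of 411 RPKM (306 to 573). Gm26564 (316 RPKM) shares 49.8% of its exon bases with Tspyl4, Gm26582 (142 RPKM) shares 70.7% with G3bp2, a stress granule protein, and Cdkl2, and Gm26658 (135 RPKM) shares 22.6% with Syt4, a synaptotagmin. Variation over the 12 libraries was smallest in Gm26825, 9530082P21Rik (coefficient of variation 0.133; 63.7 to 92.6 RPKM) and Gm26636 (0.146), and largest in Gm13889 (1.29), E530001K10Rik (1.19) and 2610316D01Rik (1.07), against a median of 0.432 over members.

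Among members with a known role, the nuclear RNAs came first. Malat1, a nuclear-retained RNA of splicing speckles (chr19:5795690-5802672, minus strand), had 898, 1079.7 and 831 RPKM in the Opn4 sham libraries and 1457, 1234 and 1909.9 in Opn4 crush. In HB9 cells it had 712, 462 and 402 RPKM after sham and 941, 893 and 949 after crush. Every crush library of a class was above every sham library of that class, and each HB9 sham library was below each Opn4 sham library. Malat1 rose in HB9 cells (log2 change of RPKM + 1, 0.86 ± 0.21, adjusted p = 0.0255), and in Opn4 cells the change was 0.70 ± 0.21, adjusted p = 0.139. Here and below, ± after a log2 change or difference is its standard error from the limma fit, and ± after RPKM is the SD. The HB9 call was lost without HB9 sham 2 or 3 or any 1 HB9 crush library (highest adjusted p = 0.112). Adjusted p was 0.0779 with libraries centred on their medians and 0.0525 with rod level as a covariate. Miat, an RNA of a separate nuclear compartment of neurons, ran from 1.89 to 13.3 RPKM with overlapping groups, and Neat1, the scaffold of paraspeckles and no member, was at or below 0.683 RPKM in every library. Of 15 paraspeckle protein genes, limma called none in either crush comparison, where 2 had an unadjusted p under 0.05 in each and voom on recovered reads called none. Of these, 1, Hnrnpa1, was higher in Opn4 cells after sham and after crush. Of 15 rows of speckle and splicing proteins, 1 rose in Opn4 crush and none passed in HB9 crush, where 3 had an unadjusted p under 0.05 and voom called none. The row that rose was 1 of 2 rows of Qk, an RNA-binding splicing regulator (log2 2.21 ± 0.36, adjusted p = 0.0099); the other had 0.76 ± 0.48, adjusted p = 0.509. The class comparisons called Celf3 and Ptbp2 higher in Opn4 cells after sham and the same row of Qk after crush.

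Meg3, the maternally expressed RNA of the imprinted Dlk1-Dio3 region (chr12:109541001-109571726, plus strand), had 80.7, 78 and 93 RPKM in Opn4 sham and 65.3, 76.6 and 64 in Opn4 crush. In HB9 cells it had 75.4, 55.1 and 50.4 RPKM after sham and 36.8, 47.1 and 36 after crush. HB9 crush held the 3 lowest libraries, and Opn4 sham the 3 highest. After crush Meg3 was higher in Opn4 than in HB9 cells (log2 difference 0.77 ± 0.21, adjusted p = 0.0272). After sham the difference was 0.49 ± 0.21, adjusted p = 0.161. The call after crush was lost without Opn4 crush 2 or HB9 crush 1 or 3 (highest adjusted p = 0.0967) and with rod level as a covariate (adjusted p = 0.213). The other RNAs of that region were far lower and no members: Rian at 0.951 to 8.14 RPKM and Mirg at 0.0194 to 1.63 RPKM. Begain, the 1 of 4 coding genes of the region with enough signal to test, was lower in Opn4 cells after sham (log2 -1.77 ± 0.37, adjusted p = 0.00783) and after crush (log2 -2.48 ± 0.37, adjusted p = 0.000947).

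Host genes of small nucleolar RNAs, the guides of ribosomal RNA modification, were represented by Snhg5, Snhg6, Snhg12 and 2810008D09Rik (Snhg20). Snhg5 (chr9:88521052-88522929, minus strand) had 8.17, 6.73 and 5.01 RPKM in Opn4 sham and 13, 42.4 and 15.7 in Opn4 crush. In HB9 cells it had 1.60, 3.03 and 3.96 RPKM after sham and 9.97, 9.74 and 20.6 after crush, so that crush libraries lay above the sham libraries of their class in both. The rise in HB9 cells passed the test (log2 1.87 ± 0.49, adjusted p = 0.0382), and the change in Opn4 cells did not (1.52 ± 0.49, adjusted p = 0.176). The HB9 call was lost without any 1 HB9 library (highest adjusted p = 0.17). It was also lost in 4 of 10 alternative fits, among them voom on recovered reads (adjusted p = 0.113). Snhg12 had 0.155 to 12.9 RPKM, Snhg6 5.88 to 18.8 and 2810008D09Rik 6.30 to 20.2, and no comparison of these 3 passed. Of 12 snoRNA hosts tested, members or not, Snhg5 alone passed in HB9 crush, with a median log2 change of 0.46 against 0.11 over all genes tested. In Opn4 cells limma called none, 3 had an unadjusted p under 0.05, voom called none, and the median was 0.37 against -0.02. Between classes Snhg11, no member, was higher in Opn4 cells after sham.

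E530001K10Rik, named Mir670hg in M21, is the host transcript of miR-670 (chr2:94251879-94264758, minus strand) and was the 1 member whose crush effects passed as different between the classes. It had 61, 47.5 and 47 RPKM in the HB9 sham libraries and 6.19, 10.8 and 2.21 in HB9 crush, against 5.04, 7 and 3.48 in Opn4 sham and 9.81, 7.76 and 4.15 in Opn4 crush. The 3 HB9 sham libraries stood alone and the other 9 overlapped. In HB9 cells it fell by 3.02 ± 0.48 on the log2 scale (adjusted p = 0.00205). In Opn4 cells the change was 0.39 ± 0.48, adjusted p = 0.753. The difference of the crush effects was 3.41 ± 0.68, adjusted p = 0.039. The fall in HB9 cells and the lower level in Opn4 sham cells (log2 difference -3.13 ± 0.48, adjusted p = 0.000981) held without any single library. The call on the difference of the crush effects was lost without Opn4 sham 1 or 3, Opn4 crush 1 or 2, any 1 HB9 sham library or HB9 crush 1 or 3 (highest adjusted p = 0.104). The mature microRNAs it carries have these RefSeq sequences, with the seed (bases 2 to 8) in capitals; the 2 arms have different seeds.
miR-670-5p: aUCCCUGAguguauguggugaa
miR-670-3p: uUUCCUCAuauccauucaggagugu

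RPKM of the host row is no measure of the mature microRNAs. Of the other members that hold microRNA genes on their strand, A930011O12Rik (Mir124a-1hg in M21; 2.97 to 14.7 RPKM), host of the neuronal miR-124, and Rmst (1.07 to 10.5 RPKM), a neurogenesis RNA that holds miR-135a and miR-1251, passed in no comparison. Nor did A330076H08Rik (miR-344 and miR-344g; 2.52 to 15.8 RPKM), E130102H24Rik (miR-101a; 0.126 to 13.2 RPKM) or 2810008D09Rik (miR-6516). Meg3, described above, holds miR-770 and miR-1906. Of the 4 microRNA hosts tested from the list, 1 rose in HB9 crush, Mir22hg (log2 0.98 ± 0.25, adjusted p = 0.0357; no member), and 1 fell, E530001K10Rik. Among neural RNAs, 1700020I14Rik, the mouse Cyrano RNA that carries a site for miR-7, had 30.9, 25.9 and 32.9 RPKM in HB9 sham and 11.6 to 25 RPKM elsewhere. No comparison of it passed (HB9 crush, log2 -0.75 ± 0.33, adjusted p = 0.236). 4933436C20Rik, the mouse Crnde RNA, ran from 0 to 12.1 RPKM and 1500011K16Rik from 46.3 to 117 RPKM, with no call in either. Of 9 neural and retinal RNAs tested, 1 rose in HB9 crush, 6330403K07Rik. After sham 6330403K07Rik and Tug1 were higher and C130071C03Rik was lower in Opn4 cells, and after crush 6330403K07Rik was higher and C130071C03Rik lower. Of 14 rows of the nuclear exosome, the RNA-degrading complex, and its adaptors 1 passed in any comparison (Exosc1, log2 -2.72 ± 0.62, Opn4 minus HB9 after crush). Of 8 rows of PRC2, the complex that methylates histone H3, 1 passed (Ezh1, -0.64 ± 0.19, after crush).

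**Figure D2:**
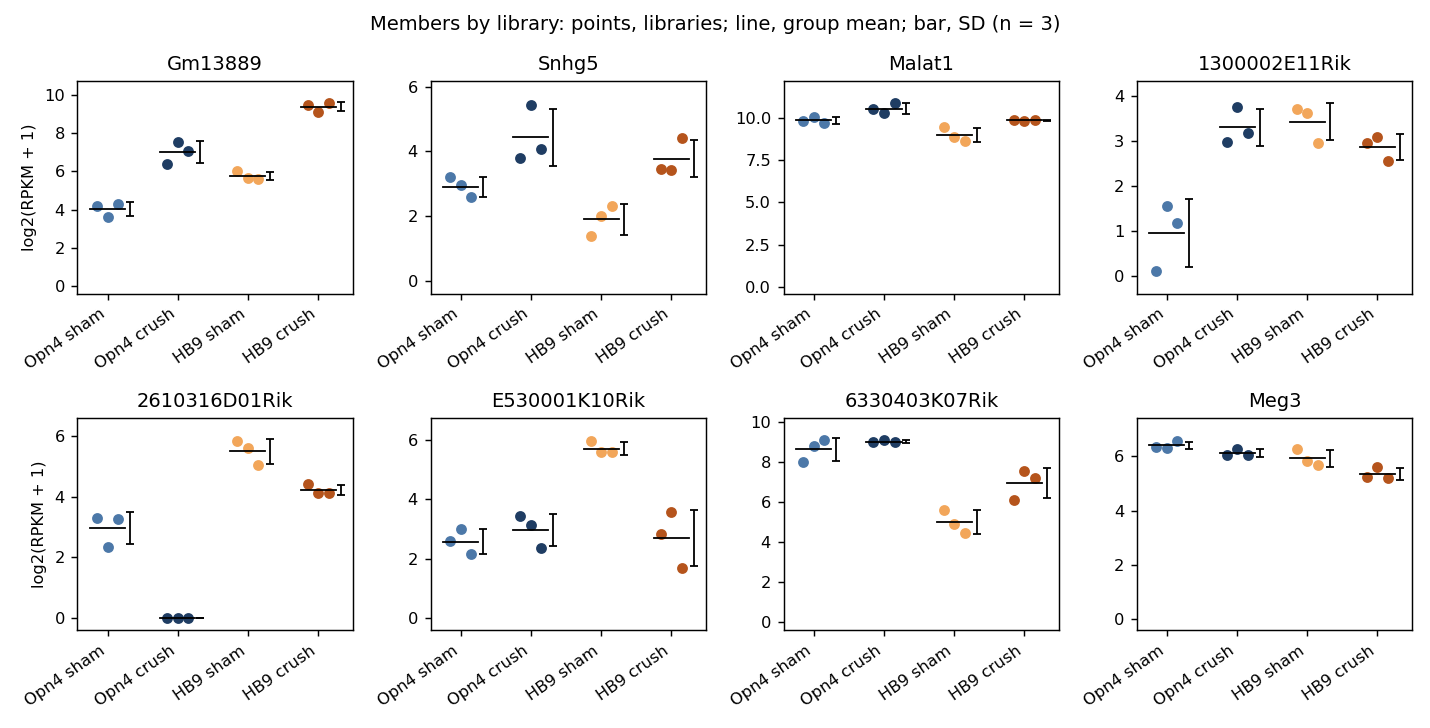
log2(RPKM + 1) of 8 members in the 12 libraries; points are libraries, horizontal lines group means and vertical bars SD (n = 3). Gm13889 is higher after crush in both classes, 2610316D01Rik is at 0 in all 3 Opn4 crush libraries, and E530001K10Rik is high in HB9 sham alone.

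After optic nerve crush in Opn4 cells, 5 of 156 members passed the test (limma, adjusted p under 0.05 over all 18269 genes tested): 3 rose and 2 fell. Over all genes 1.11% passed (0.69% higher, 0.421% lower), so 5 members are 3.21% of their number. The median member had a log2 change of 0.12, against -0.02 over all genes. Gm13889 (chr2:93955810-93957049, minus strand), a predicted gene now typed as coding, had 17, 11.2 and 18.9 RPKM in the sham libraries and 83.5, 187 and 131 in the crush libraries, with no overlap (log2 2.97 ± 0.28, adjusted p = 0.00027). Another row of the same name, typed as pseudogene, overlaps this gene, and its values are not given here. 1300002E11Rik (chr16:21794347-21809037, plus strand), which shares 5.39% of its exon bases with the kinase gene Map3k13 on the same strand, had 0.0773, 1.94 and 1.27 RPKM after sham and 6.84, 12.6 and 8.14 after crush, again with no overlap between the groups (log2 2.36 ± 0.47, adjusted p = 0.0293). Its level in the HB9 libraries, 4.86 to 12.1 RPKM, overlapped that of the Opn4 crush libraries. Gm26658, antisense to Syt4 on chromosome 18, rose from 66.7 ± 10.1 to 124 ± 19 RPKM (log2 0.89 ± 0.18, adjusted p = 0.0372), and Syt4 itself rose by 0.87 ± 0.17, adjusted p = 0.0257. 2610316D01Rik (chr3:45280440-45378260, minus strand), which starts 138 bp from the protocadherin gene Pcdh10 on the other strand, had 8.90, 4.09 and 8.53 RPKM after sham and was at 0 in all 3 crush libraries. Against a floor of 3 reads over the crush group (0.0575 RPKM), where the sham group had 414 reads, it was at least 131-fold lower after crush (adjusted p = 0.00289); the floor covers counting error only. Pcdh10 had 1.31 ± 1.22 RPKM in Opn4 sham and 2.28 ± 1.92 in Opn4 crush (adjusted p = 0.817). Gm26786, wholly within exons of Zfp90 and Prmt7, fell from 13.2, 5.25 and 6.48 to 1.57, 0.362 and 0.227 RPKM (log2 -2.42 ± 0.51, adjusted p = 0.0419), as did Zfp90 (log2 -3.14 ± 0.51, adjusted p = 0.00951). The calls of Gm13889 and 2610316D01Rik held without any single library, and those of the other 3 did not. 1300002E11Rik no longer passed once Opn4 sham 1 or 3, Opn4 crush 2 or 3, HB9 sham 1 or 2 or HB9 crush 1 was left out (highest adjusted p = 0.0718). Gm26658 no longer passed once Opn4 sham 2 or 3, Opn4 crush 1 or 3, HB9 sham 2 or any 1 HB9 crush library was left out (highest adjusted p = 0.0923). Gm26786 no longer passed once any 1 Opn4 sham library, Opn4 crush 2 or 3, HB9 sham 1 or 2 or any 1 HB9 crush library was left out (highest adjusted p = 0.117). Fitted on the Opn4 groups alone limma called none of the 156 (adjusted p = 0.0864 for Gm13889 and 0.102 for 2610316D01Rik). In the fit of all 12 libraries 30 members had an unadjusted p under 0.05, voom on recovered reads called 2, and without Opn4 sham 1 and Opn4 crush 1 the count was 3. Leaving out 1 library gave 2 (without Opn4 crush 3, HB9 sham 2 or HB9 crush 1), 3 (without any Opn4 sham library, HB9 sham 1, HB9 crush 2 or HB9 crush 3) or 4 to 5 calls.

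In HB9 cells 12 members passed after crush, 9 up and 3 down, which is 7.69% of members against 6.42% of all genes (3.84% higher, 2.57% lower). Median log2 levels of the genes tested were 3.48 in HB9 sham and 3.66 in HB9 crush libraries on average. With libraries centred on their medians 5 members passed upward and 10 downward, and voom on recovered reads called 5 upward and 7 downward. Shares of all genes called in these 2 fits are not given here, so the shift cannot be called particular to the members. Gm13889 had the largest rise, from 63.5, 49.4 and 47 RPKM to 704, 550.0 and 759.8 RPKM (log2 3.63 ± 0.28, adjusted p = 1.25e-05), the same direction as in Opn4 cells. It was 1 of 2 members called in both classes, a count for which the share of all genes is not given here. The other was Gm26658 (109 ± 18.7 to 241 ± 5.72 RPKM, log2 1.16 ± 0.18, adjusted p = 0.00188). Syt4 rose by 1.15 ± 0.17, adjusted p = 0.00112. 6330403K07Rik (chr11:71031941-71033513, minus strand), also typed as coding in M21, rose from 48.8, 29.3 and 20.9 to 67.6, 188 and 147 RPKM (log2 1.95 ± 0.38, adjusted p = 0.008), still below the 259 to 555 RPKM of the Opn4 libraries. 1810058I24Rik rose from 9.86, 13.9 and 14.2 to 28.9, 34.3 and 33.8 RPKM (log2 1.30 ± 0.30, adjusted p = 0.0215). Gpr137b-ps, a pseudogene copy of the lysosomal membrane gene Gpr137b, rose from 19.3, 18.3 and 18.4 to 48.3, 57.7 and 33.9 RPKM (log2 1.24 ± 0.27, adjusted p = 0.0157). Gpr137b itself rose by 1.60 ± 0.26, adjusted p = 0.0024. Besides Snhg5 and Malat1, 1700101I11Rik (divergent from the autophagy gene Gabarapl1; log2 1.05 ± 0.28, adjusted p = 0.0406) and Gm26623 (the H2afz copy; log2 0.71 ± 0.20, adjusted p = 0.0491) also rose. Those that fell were E530001K10Rik, Gm26666 and Gm26723. Gm26666, which lies inside the amino acid transaminase gene Bcat1 on the opposite strand, fell from 13.1, 12.9 and 16.6 to 3.42, 6.37 and 1.01 RPKM (log2 -1.91 ± 0.46, adjusted p = 0.0273). Gm26723 fell as well (538 ± 45.3 to 349.7 ± 36.5 RPKM, log2 -0.62 ± 0.16, adjusted p = 0.0361). In a bulk sample fewer cells of a type and less RNA per cell cannot be told apart, and the glial, Cd68 and melanopsin-cell signal given above moved with HB9 crush. So did Mnx1, and of 12 ganglion cell markers 4 fell and 1 rose. The part of these signals in the calls was not tested. Without any 1 of the 6 HB9 libraries the count was 4 to 6, and the calls of Gm13889, 6330403K07Rik, E530001K10Rik and Gm26658 held without any single library. With voom on recovered reads, however, 6330403K07Rik did not pass (adjusted p = 0.0839). 1810058I24Rik, Gm26723 and 1700101I11Rik no longer passed once any 1 HB9 library was left out (highest adjusted p = 0.0916, 0.15 and 0.159). Gpr137b-ps no longer passed once HB9 sham 2 or 3 or HB9 crush 1 or 2 was left out (highest adjusted p = 0.0807). Gm26666 no longer passed once any 1 HB9 sham library or HB9 crush 1 or 3 was left out (highest adjusted p = 0.104). Gm26623 no longer passed once Opn4 sham 2 or 3, Opn4 crush 3 or any 1 HB9 library was left out (highest adjusted p = 0.174).

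A test of whether crush acted differently in the 2 classes called 1 of 156 members (0.641%, against 0.816% of all genes), E530001K10Rik. The next members by the size of the difference did not pass: 1300002E11Rik (2.93 ± 0.66, adjusted p = 0.0637) and Gm26786 (-2.84 ± 0.73, adjusted p = 0.104). For Gm13889 the difference was -0.66 ± 0.40, adjusted p = 0.533.

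**Figure D3:**
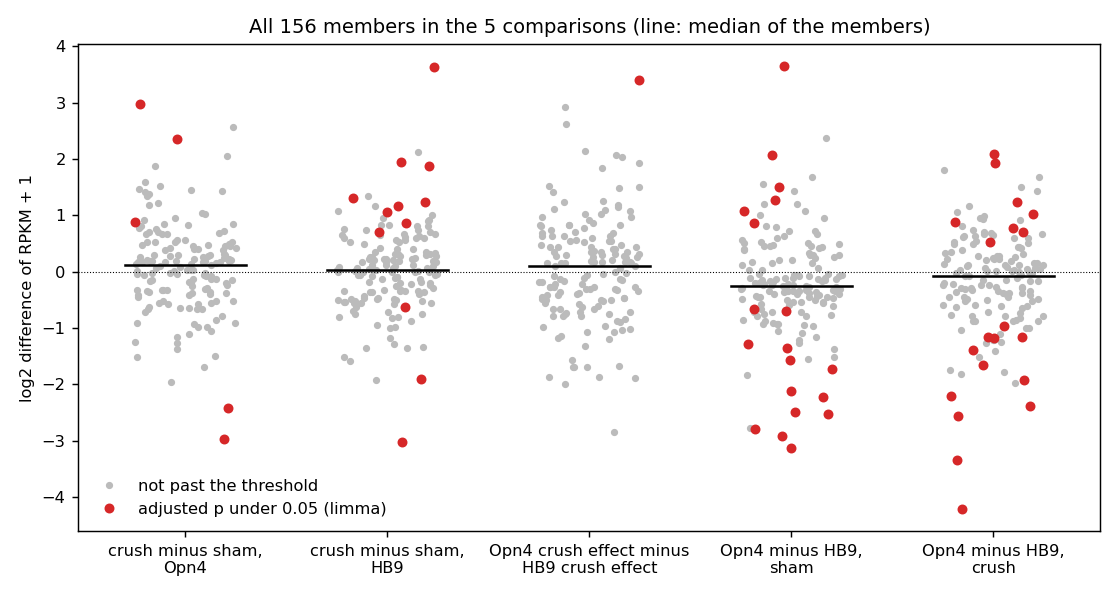
Log2 differences of RPKM + 1 for all 156 members in the 5 comparisons; red points passed (limma, adjusted p under 0.05), grey points did not, and lines mark the members' medians. Calls number 5, 12, 1, 19 and 20 from left to right.

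Between uncrushed cells of the 2 classes, 19 members differed (12.2%, against 11.8% of all genes; 5.82% higher and 5.93% lower in Opn4 cells): 6 were higher in Opn4 cells and 13 lower. The median member differed by -0.26 (Opn4 minus HB9, log2), against 0.01 over all genes. With libraries centred on their medians 4 members were higher and 16 lower, a description only, as the share of all genes in that fit is not given here. 6330403K07Rik had the largest difference among the higher ones, with 259, 450.4 and 555 RPKM in Opn4 sham and 48.8, 29.3 and 20.9 in HB9 sham (log2 3.65 ± 0.38, adjusted p = 5.11e-05). 1810014B01Rik, a transcribed pseudogene row antisense to Hsp90b1, a chaperone of the endoplasmic reticulum, had 110.1, 134 and 117 against 49.4, 61.5 and 59.1 RPKM (log2 1.07 ± 0.18, adjusted p = 0.00186), and Hsp90b1 differed by 1.15 ± 0.14, adjusted p = 0.000138. 1810014B01Rik shares 15.6% of its exon bases with Hsp90b1. Hits to other genes at 95% identity or more covered 36.7% of its transcript, the longest to the coding gene 1190007I07Rik, whose values are not given here. The other 4 were Gm4419 (2.07 ± 0.58, adjusted p = 0.0343), Gm16701 (1.5 ± 0.44, adjusted p = 0.0444), Gm26533 (1.27 ± 0.38, adjusted p = 0.0483) and Malat1 (0.87 ± 0.21, adjusted p = 0.0155). After E530001K10Rik, the largest difference downward was in RP24-421H18.1 (0, 0 and 3.07 against 12.4, 15.2 and 7.01 RPKM, log2 -2.91 ± 0.57, adjusted p = 0.00467). Gm2464, which shares 44.4% of its exon bases with M21 exons of the RNA-binding protein gene Ralyl, was lower as well (1.97, 2.21 and 2.72 against 27.3, 17.7 and 21.1 RPKM, log2 -2.79 ± 0.50, adjusted p = 0.00291). 2610316D01Rik had 55.5, 48 and 32.1 RPKM in HB9 sham, above every Opn4 sham library (log2 -2.53 ± 0.38, adjusted p = 0.000876), and its neighbour Pcdh10 was lower in Opn4 cells too (-2.75 ± 0.62, adjusted p = 0.0121). 1300002E11Rik (-2.49 ± 0.47, adjusted p = 0.00375) and Gm13889 (-1.72 ± 0.28, adjusted p = 0.00161) were also lower. B230217O12Rik is counted among the 13, but it became a member through its HB9 libraries alone and its levels, 0, 3.91 and 0 against 6.54, 8.13 and 6.34 RPKM, are a description; without it 12 were lower. The remaining 6 that were lower, Gm17586, Gm26673, Gm1976, Gm16302, Gm26658 and Gm26623, differed by -2.11 to -0.66. Gm4419, Gm2464 and Gm17586 reached 5 RPKM in 1 library of a class, 2610316D01Rik in 2 and RP24-421H18.1 in 3. Their class differences are not independent of the choice of members and are a description too.

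Rod levels, given above, also ran higher in the Opn4 libraries. With their mean as a covariate 7 of the 19 calls remained. Of these, 2 members were higher and 5 lower in Opn4 cells. Rod level goes with the cell class, and the share of all genes called with the covariate is not given here. The loss of calls can therefore not be called particular to the members. The call of 6330403K07Rik, 1810014B01Rik, E530001K10Rik and 2610316D01Rik held in every alternative fit and without any single library. Adjusted p with the covariate was 0.0917 for Gm2464, 0.108 for RP24-421H18.1 and 0.0681 for 1300002E11Rik, whose calls held without any single library. In all, 10 of the 19 calls held without any single library. The calls of B230217O12Rik, Gm1976, Gm26658 and Gm26673 did not (highest adjusted p = 0.121, 0.112, 0.113 and 0.0961), nor did those that follow. Gm4419 no longer passed once Opn4 sham 1 or 3 or HB9 sham 1 or 3 was left out (highest adjusted p = 0.137). Gm16701 no longer passed once Opn4 sham 1 or 3, Opn4 crush 3 or any 1 HB9 library was left out (highest adjusted p = 0.157). Gm26533 no longer passed once any 1 Opn4 sham library or any 1 HB9 library was left out (highest adjusted p = 0.167). Malat1 no longer passed once Opn4 sham 2 or HB9 sham 2 or 3 was left out (highest adjusted p = 0.0737). For Gm26623 leaving out any 1 of 10 libraries ended the call (highest adjusted p = 0.157). With voom on recovered reads Gm13889 did not pass (adjusted p = 0.08). The count was 11 to 25 over the 12 fits that each left out 1 library, with 11 without HB9 sham 3, 12 without HB9 sham 2 and 25 without Opn4 crush 1.

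After crush 20 members differed between the classes (12.8%, against 12.7% of all genes; 5.12% higher and 7.6% lower in Opn4 cells). Opn4 cells had the higher level in 8 of them and the lower in 12. In all, 9 members were called in the same direction after both operations. The share of all genes called so is not given here, so this count is a description. 2610316D01Rik was at 0 in Opn4 crush and at 20.3, 16.4 and 16.4 RPKM in HB9 crush. It was at least 305-fold lower in Opn4 cells against the same floor (adjusted p = 2.15e-05). Its 6 HB9 libraries alone met the rule, so this difference is not independent of the choice of members. Gm2464 (0.633, 2.75 and 7.61 against 37.9, 31.8 and 41.6 RPKM, log2 -3.34 ± 0.50, adjusted p = 0.000951) was lower together with Ralyl (-2.43 ± 0.23, adjusted p = 3.59e-05). Gm13889 (-2.38 ± 0.28, adjusted p = 0.000181) was again lower, as were Gm26786 (-2.21 ± 0.51, adjusted p = 0.0136) and Gm26856 (-1.92 ± 0.56, adjusted p = 0.0396). B230217O12Rik, counted among the 12 but a member through its HB9 libraries alone, had 0, 1.51 and 0 against 6.39, 8.96 and 6.03 RPKM, and without it 11 were lower. The 6 other members that were lower were Gm26909, Gm27031, Gpr137b-ps, Gm26631, Gm26623 and Gm26658, by -1.65 to -0.96. Gm2464 and Gm26856 reached 5 RPKM in 1 Opn4 library each, so their class differences are not independent of the choice of members. Higher in Opn4 cells were 6330403K07Rik (511, 553 and 513 against 67.6, 188 and 147 RPKM, log2 2.08 ± 0.38, adjusted p = 0.00364) and Gm14290 (1.92 ± 0.46, adjusted p = 0.0169). So was 1810014B01Rik (1.24 ± 0.18, adjusted p = 0.000761), along with Hsp90b1 (1.25 ± 0.14, adjusted p = 9.4e-05). Gm14290 reached 5 RPKM in 6 Opn4 and 4 HB9 libraries. Its Opn4 libraries alone met the rule, so its class difference is not independent of the choice of members. Gm16982, antisense to the clathrin adaptor gene Ap2a2, differed by 1.03 ± 0.27, adjusted p = 0.0241, and Ap2a2 by 0.89 ± 0.20, adjusted p = 0.0106. Gm17275, which shares 25% of its exon bases with the histone gene H3f3a, differed by 0.88 ± 0.25, adjusted p = 0.0389, and H3f3a by 0.93 ± 0.22, adjusted p = 0.0138. Meg3, Malat1 (0.70 ± 0.21, adjusted p = 0.0417) and Gm26582 (0.52 ± 0.15, adjusted p = 0.0422) completed the 8. G3bp2, which overlaps Gm26582, differed by 0.50 ± 0.13, adjusted p = 0.0273. With rod level as a covariate 7 of the 20 calls remained, again with no share of all genes given. Without any 1 HB9 library the count was 11 to 19, with 13, 11 and 12 without HB9 crush 1, 2 and 3. Of the 20 calls, 7 held without any single library. Those of B230217O12Rik, Gm26909, Gm27031, Gpr137b-ps and Gm26631 did not (highest adjusted p = 0.0597, 0.0533, 0.0969, 0.0675 and 0.0825), nor did that of Meg3, described above. Gm26786 no longer passed once HB9 crush 3 was left out (adjusted p = 0.0578). Gm26856 no longer passed once Opn4 crush 1 or 2, HB9 sham 1 or 2 or any 1 HB9 crush library was left out (highest adjusted p = 0.121). Gm14290 no longer passed once Opn4 crush 1 or HB9 crush 3 was left out (highest adjusted p = 0.0677). Gm16982 no longer passed once Opn4 crush 1 or 2 or HB9 crush 2 or 3 was left out (highest adjusted p = 0.0958). Gm17275 no longer passed once any 1 Opn4 crush library, HB9 sham 2 or 3 or any 1 HB9 crush library was left out (highest adjusted p = 0.141). Malat1 no longer passed once Opn4 crush 1 or 3, HB9 sham 2 or any 1 HB9 crush library was left out (highest adjusted p = 0.142). Gm26582 no longer passed once Opn4 sham 3, any 1 Opn4 crush library, HB9 sham 1 or 2 or HB9 crush 1 or 2 was left out (highest adjusted p = 0.159).

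**Figure D4:**
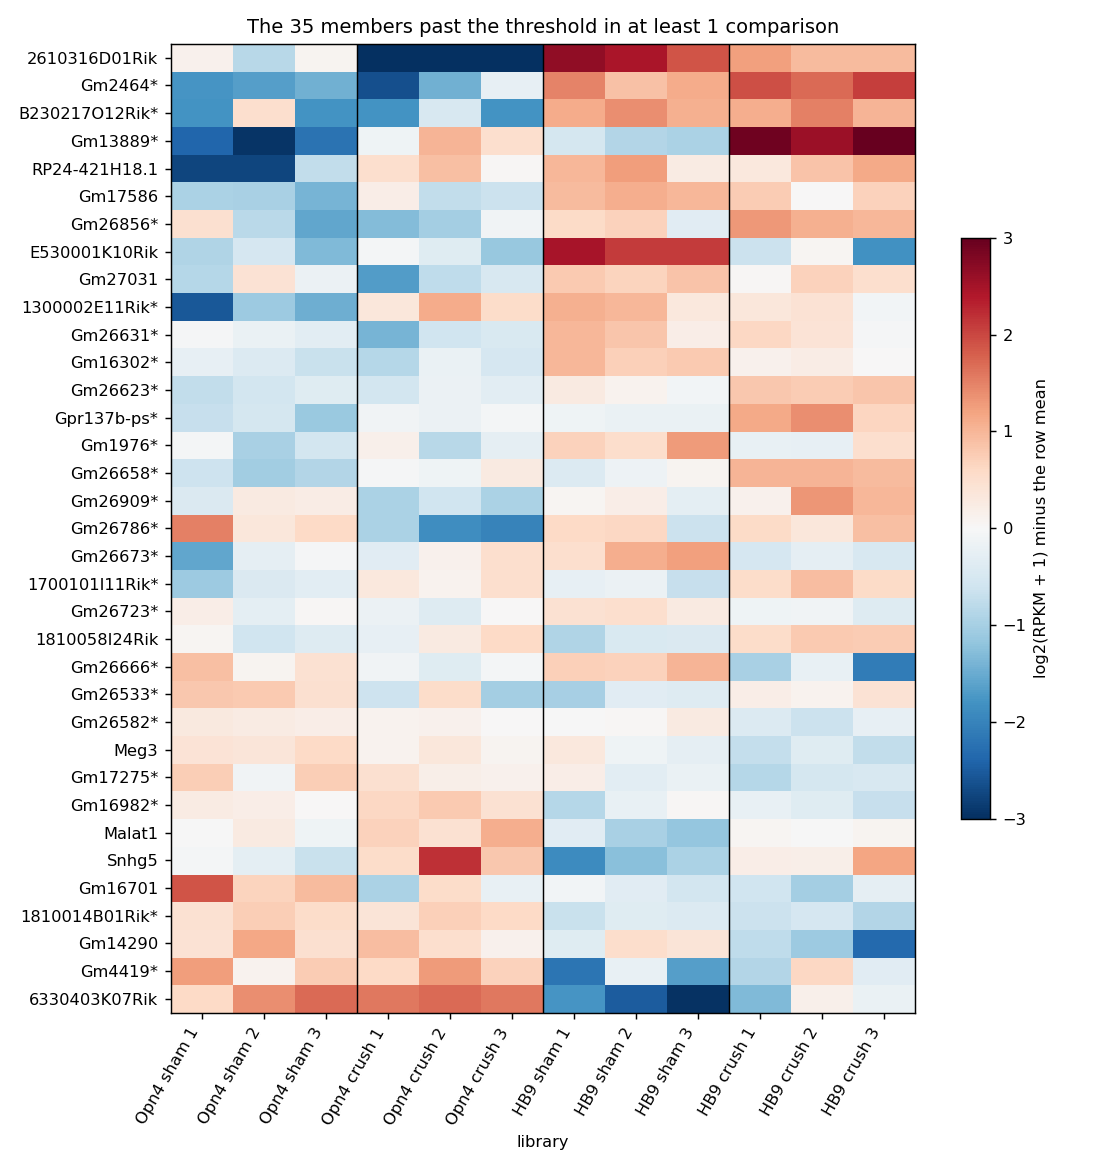
The 35 members past the threshold in at least 1 comparison, 1 row each, ordered by the sum of both class differences (lower in Opn4 cells at the top); colour is log2(RPKM + 1) minus the row mean, clipped at -3 and 3, columns are the 12 libraries and lines separate the 4 groups. Asterisks mark 23 members that share exon bases with a coding gene, are near copies or overlap a pseudogene.

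Changes of members that share exon bases with a coding gene ran alongside those of that gene. Over 89 such pairs in which the coding gene could be tested, the log2 changes of member and coding gene correlated with r = 0.80 for crush in HB9 cells and r = 0.83 for the class difference after crush. For 41 members with no shared base, set against the nearest coding gene, the same values were r = -0.004 and r = 0.29. For 11 near copies of a coding gene they were r = 0.66 and r = 0.67. For crush in Opn4 cells and the class difference after sham, r was 0.74 and 0.68 in overlapping pairs, 0.34 and 0.096 in near copies and 0.0037 and 0.051 in nearest pairs. These correlations are across genes of the same libraries, which are not independent replicates, and are given as a description with no test. Within groups, where the operation and class are constant, deviations of a member and its coding gene from their group means over the 12 libraries had a median correlation of 0.88 in overlapping pairs and 0.07 in neighbouring pairs. It was 0.95 in 29 pairs sharing at least 50% of the member's exon bases, 0.88 in 45 pairs sharing 10% to 50% and 0.39 in 15 pairs sharing less. The coding gene was the more abundant in 74 of the 89 pairs (median 34.6 RPKM, against 12.3 RPKM for members). Among called members that overlap a coding gene, that gene was called in the same direction for 2 of 4 in Opn4 crush, 2 of 5 in HB9 crush, 3 of 9 between classes after sham and 11 of 12 after crush. For near copies these counts were 2 of 2 in HB9 crush, 1 of 1 after sham and 2 of 2 after crush. For nearest neighbours they were 0 of 1, 0 of 4, 1 of 8 (with 1 more called in the opposite direction) and 0 of 5.

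Single pairs showed the range. Gm26658 and Syt4 had log2 crush effects of 0.89 and 0.87 in Opn4 and 1.16 and 1.15 in HB9 cells. Gm26631 and Cox5a, a subunit of cytochrome c oxidase, had class differences after crush of -1.15 and -1.17. Gm26623 and its near copy H2afz had log2 changes of 0.71 and 0.71 in HB9 crush. By contrast Gm13889 shares 20.8% of its exon bases with the predicted coding gene Gm27027 on the same strand, and in HB9 crush they had log2 changes of 3.63 and 1.30 and in Opn4 crush of 2.97 and -0.26. 6330403K07Rik and its neighbour Mis12, 4570 bp away, had class differences after sham of 3.65 and -1.72. Of the 36 members with no shared coding exon bases, near copy or pseudogene overlap, 10 were called in at least 1 comparison (27.8%). So were 19 of 93 that share exon bases (20.4%), 4 of 20 near copies or pseudogene overlaps and 2 of 7 not in M21. That makes 35 of 156 in all (22.4%), against 21.4% of all genes tested.

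**Figure D5:**
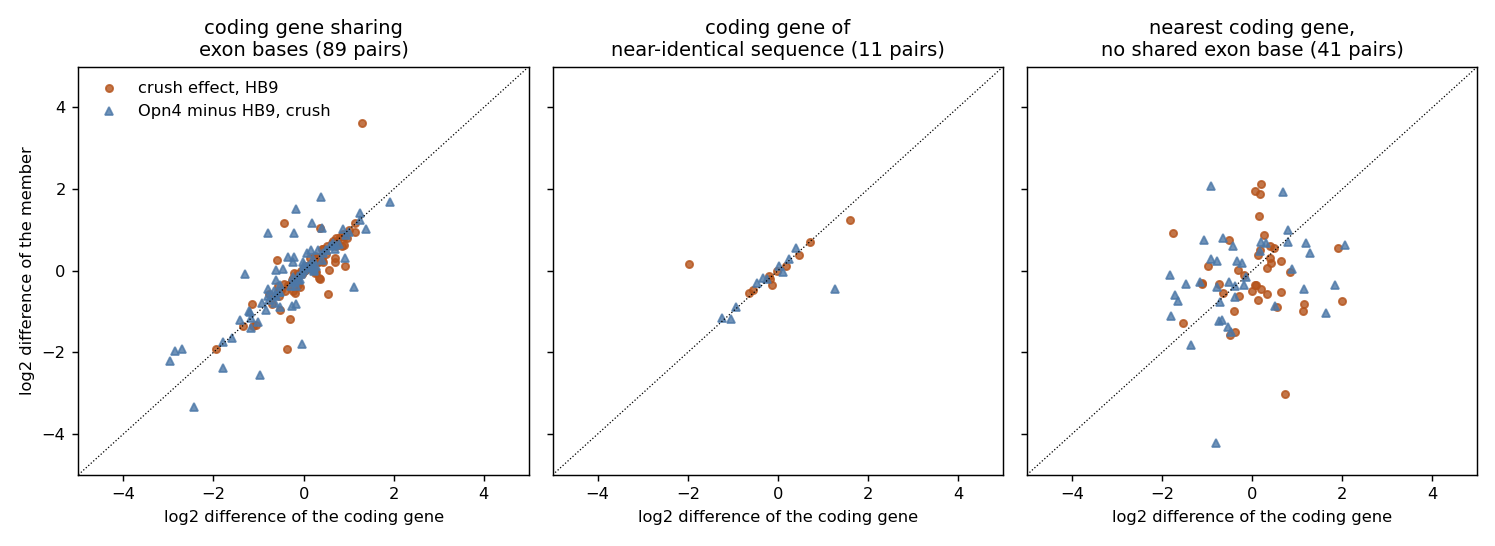
Log2 difference of each member (vertical) against that of a coding gene (horizontal), for crush in HB9 cells (circles) and Opn4 minus HB9 after crush (triangles); panels hold 89 pairs sharing exon bases, 11 near copies and 41 nearest neighbours, and the dotted line marks equal values. Most pairs that share exon bases lie near the line, with Gm13889 at 3.63 far above it, and nearest neighbours scatter around 0.

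Promoter sequence was at hand in RefSeq's table (build GRCm38.p6, 250 bases before to 50 after a start) for 48 members whose listed start lay within 500 bp; Gm13889 was not among them. Windows were searched on both strands for 6 motifs: the AP-1 site TGANTCA, the cyclic AMP response element TGACGTCA, the ATF4 element TTGCATCA, the E-box CACGTG, the TATA box TATAAA and the CCAAT box. The cyclic AMP element was found in 3 of the 48 windows (6.25%) and in 1.79% of all 32851 promoters of the table. The AP-1 site was found in 3 (6.25%, against 7.81%) and the ATF4 element in 1 (2.08%, against 0.895%). The E-box was found in 2 (4.17%, against 7.15%), the TATA box in 4 (8.33%, against 13.6%) and CCAAT in 19 (39.6%, against 37.4%). A match describes letters and is not a bound site. The windows of 4 members on which the comparisons turned are shown. Capitals mark the cyclic AMP element in Meg3, both CCAAT boxes of 2610316D01Rik, the cyclic AMP element and 3 CCAAT boxes (as ATTGG) of 1300002E11Rik, and the AP-1 site of E530001K10Rik. Matches of CCAAT and TATAAA in the windows of Meg3 and E530001K10Rik were left in lower case. 2610316D01Rik and E530001K10Rik lie on the minus strand and the other 2 on the plus strand; all are written 5′ to 3′.
Meg3, chr12:109540746-109541045: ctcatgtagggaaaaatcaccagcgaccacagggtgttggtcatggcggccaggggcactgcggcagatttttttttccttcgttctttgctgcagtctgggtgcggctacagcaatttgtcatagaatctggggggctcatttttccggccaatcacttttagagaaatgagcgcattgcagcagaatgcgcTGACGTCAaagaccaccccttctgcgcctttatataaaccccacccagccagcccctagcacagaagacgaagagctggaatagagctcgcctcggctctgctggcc
2610316D01Rik, chr3:45378211-45378510: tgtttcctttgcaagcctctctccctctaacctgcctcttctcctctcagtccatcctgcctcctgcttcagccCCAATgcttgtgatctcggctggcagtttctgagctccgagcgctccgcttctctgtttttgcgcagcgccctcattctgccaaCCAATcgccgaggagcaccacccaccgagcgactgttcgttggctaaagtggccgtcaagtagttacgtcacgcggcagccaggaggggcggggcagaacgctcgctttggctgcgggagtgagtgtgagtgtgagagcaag
1300002E11Rik, chr16:21794097-21794396: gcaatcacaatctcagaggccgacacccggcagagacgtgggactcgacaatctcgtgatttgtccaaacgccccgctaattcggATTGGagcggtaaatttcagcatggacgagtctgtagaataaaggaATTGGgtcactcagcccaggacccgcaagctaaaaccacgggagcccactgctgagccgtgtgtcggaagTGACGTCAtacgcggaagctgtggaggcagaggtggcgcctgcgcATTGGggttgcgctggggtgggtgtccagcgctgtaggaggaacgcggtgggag
E530001K10Rik, chr2:94265039-94265338: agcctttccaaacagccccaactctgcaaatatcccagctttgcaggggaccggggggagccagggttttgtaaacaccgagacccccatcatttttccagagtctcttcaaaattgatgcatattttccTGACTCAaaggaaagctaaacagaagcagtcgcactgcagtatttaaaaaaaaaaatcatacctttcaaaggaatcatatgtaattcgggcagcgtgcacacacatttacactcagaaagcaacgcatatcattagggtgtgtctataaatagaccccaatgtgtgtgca

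The window of 2610316D01Rik faces Pcdh10, and at 59.3% G and C it is the richest of the 4, while that of E530001K10Rik, at 43.3%, is the poorest.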

How the data were processed

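RNA from 12 samples of hand-picked mouse retinal ganglion cells, pre-amplified per the labels' protocols, was analysed from 1 deposited table of RPKM values with a gene type for each row. Build mm10 and the tools edgeR 3.14.0, TopHat2 2.0.11 and Bowtie come from the submitters' processing notes, which give no roles; the counting program, its strand setting and its annotation are not given in the sources used here. Reads matched to more than 1 gene or counted without strand would raise the levels of near copies and antisense genes. RPKM are no counts, so limma 3.58.1 (R 4.3.3), with a mean-variance trend, was fitted to log2(RPKM + 1) of 18269 genes with at least 1 RPKM in at least 3 of 12 libraries. All 12 libraries entered 1 fit, p-values were adjusted by Benjamini and Hochberg over all genes tested, and log2 changes on this scale understate changes of low genes. Log2 changes and differences are given ± their standard error from the limma fit, and mean RPKM ± SD. All 156 members passed the filter on low values. Two-sided tests compared crush with sham in each cell class, the classes after each operation, and the 2 crush effects.

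Whole reads were recovered from the RPKM steps for the 28168 genes above 0. They summed to 226.7% to 244.2% of the scaling totals, so these totals were not the sums of the reads over genes. In the short genes that gave the totals, whole reads were checked to a tolerance of 0.01 reads. Recovered reads serve depth, floors of 3 reads, which cover counting error only, and limma-voom. Exons, biotypes and overlaps came from GENCODE M21, matched on gene identifiers, near copies from BLAST 2.17.0 and promoters and microRNAs from RefSeq tables. The fits were tested on simulated data. Members and gene lists were chosen with earlier results of these data known. Members named with values were those in the lists, the 10 highest, the 3 most and 3 least variable, those at the threshold, and in each comparison up to 6 called members in each direction whose libraries did not overlap. Other called members, and a few other genes such as Neat1, Rian and Mirg, were named after their values were seen. Each sample pools cells of several animals, so the spread is between pools. Alternatives were another pseudocount, other filters, library centring, a rod covariate, array weights, smaller fits, a replicate block, voom and leaving out libraries. The values of 1 coding gene that overlaps a member are not reported here.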

Additional observations from a re-analysis of the deposited data

Results flagged for a closer look

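E530001K10Rik, the host transcript of miR-670, was picked out because the test called its crush effects different between the 2 cell classes. The crush effect in Opn4 cells minus that in HB9 cells was 3.41 ± 0.68 on the log2 scale (limma, adjusted p = 0.039). For 9 of the 12 libraries, leaving out that library ended this call (highest adjusted p = 0.104). It was also lost in 4 of 9 alternative fits, among them voom on recovered reads (adjusted p = 0.0953).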

How the results depend on the processing

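Member counts changed as follows, and shares of all genes called under these alternatives are not given here. In Opn4 crush the 5 calls became 2 with no filter on low values, 2 with array weights, 0 in a fit of the Opn4 groups alone, 3 without Opn4 sham 1 and Opn4 crush 1 and 2 with voom on recovered reads. In HB9 crush the 12 became 27 with array weights (12 up, 15 down). For the difference of the crush effects the 1 call became 0 with no filter, 2 with array weights and 0 without Opn4 sham 1 and Opn4 crush 1; with pseudocount 0.1 and with voom the 1 member called was another one. After sham the 19 class calls became 7 with the rod covariate and 12 in a fit of the sham groups alone, and after crush the 20 became 7 with the rod covariate. Leaving out each library in turn gave 2 to 5 calls in Opn4 crush, 4 to 13 in HB9 crush, 0 to 1 for the difference, 11 to 25 after sham and 11 to 23 after crush. Gm26786, not called after sham, reversed with the rod covariate (-0.26, against 0.63). Of the other values of single members under alternatives, 1392 kept direction and side of the threshold, 308 lost a call and 14 gained one; the cause was not tested.

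Calls that held in every alternative and without any library numbered 6 of 20 after crush, 6 of 19 after sham, 3 of 12 in HB9 crush, 0 of 5 in Opn4 crush and 0 of 1 for the difference. Those after crush include 2610316D01Rik and Gm2464, and those after sham include 2610316D01Rik and Gm17586. The class differences of these members are not independent of the choice of members, so their stability is a description only. Replicate numbers did not pair the samples: deviations of same-numbered libraries correlated at -0.02 to 0.08, and 5 of 12 libraries correlated best with a library of their own number. With the replicate number as a block the counts were 3 in Opn4 crush, 9 in HB9 crush, 1 for the difference, 16 after sham and 17 after crush.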
